A study of Mus musculus with 36 samples.

Results

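The mitochondrial genome encodes 2 ribosomal RNAs, mt-Rnr1 and mt-Rnr2, and both were followed across extracellular vesicles (EVs), their cell-of-origin neural stem cells (NSCs) and 3 ethanol doses. They were taken by name, as 2 of the 40205 features of the count tables, of which 31069 had at least 1 count. RNA sequencing covered 36 libraries, 18 of EVs and 18 of cells, from neurospheres grown from the dorsal telencephalon of mouse fetuses at gestational day 12.5. The labels give C57BL/6J wild-type mice, and the study's methods name C57BL/6J (Ai14) animals. Fetuses of a pregnancy were pooled by sex, which gave 6 cultures, 3 female and 3 male, out of 3 pregnancies (called sets 3, 4 and 5). Each culture was kept for 5 days without ethanol (0 mg/dL, control) or with 120 mg/dL (26 mM) or 320 mg/dL (70 mM) ethanol, and each culture and dose gave 1 EV and 1 cell library. All groups shared the serum-free mitogenic medium, the depletion of ribosomal RNA with Ribo-Zero Plus before sequencing and the stranded library kit, while RNA was extracted with a micro kit from EVs and a mini kit from cells. Every level below is therefore what remained after depletion, and the extraction kit and location cannot be told apart.

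mt-Rnr1 is the ribosomal RNA of the small subunit of the mitochondrial ribosome, and mt-Rnr2 that of the large subunit. They lie next to each other at the start of a long transcript that also carries tRNAs and mRNAs, and the tRNAs between them are cut out to free the rRNAs. The mitochondrial ribosome translates only the mRNAs of the mitochondrial genome, all of which encode subunits of the respiratory chain and ATP synthase.

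On GRCm39, the build the authors mapped to, mt-Rnr1 spans chrM:70-1024 on the plus strand, 955 bases with a GC content of 35.8%. mt-Rnr2 spans chrM:1094-2675 on the plus strand, 1582 bases with a GC content of 35.4%. Both are whole non-coding genes without introns. The 3 borders at which tRNAs are cut from the rRNAs are shown because the counts of these tRNAs are set against those of the rRNAs below. Capitals mark the tRNA and lower case its neighbours, in the GRCm39 reference (plus strand, 5′ to 3′), at chrM:1-100 for TrnF and the first bases of mt-Rnr1, chrM:995-1123 for TrnV between the rRNAs, and chrM:2646-2780 for TrnL1 between mt-Rnr2 and ND1.
TrnF to mt-Rnr1: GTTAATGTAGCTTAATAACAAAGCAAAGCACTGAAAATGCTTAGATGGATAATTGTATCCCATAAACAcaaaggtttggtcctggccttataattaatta
mt-Rnr1 to mt-Rnr2: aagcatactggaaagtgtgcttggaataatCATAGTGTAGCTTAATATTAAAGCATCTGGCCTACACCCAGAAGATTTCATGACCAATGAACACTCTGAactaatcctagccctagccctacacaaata
mt-Rnr2 to ND1: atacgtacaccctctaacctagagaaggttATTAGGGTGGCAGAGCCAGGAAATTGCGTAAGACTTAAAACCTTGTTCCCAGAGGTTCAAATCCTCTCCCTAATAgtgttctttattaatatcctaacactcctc

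Nuclear chromosomes hold copies of mitochondrial DNA, and a read that matches both places equally well cannot be assigned. A BLAST search of GRCm39 found 9 nuclear copies of stretches of mt-Rnr1, of at most 82.9% identity, and 10 of mt-Rnr2. The closest copy of mt-Rnr2, on chromosome 10, was 373 bases long at 97.6% identity. The longest run of identical bases shared with a copy was 117 bases in mt-Rnr2 and 29 bases in mt-Rnr1, so reads from part of mt-Rnr2 can match both places. The pair of aligned sequences shows how few bases set the mt-Rnr2 transcript (chrM:1509-1628, plus strand) apart from that copy (chr10:95913640-95913759, minus strand), with the 5 differing bases of 120 in capitals.
mt-Rnr2: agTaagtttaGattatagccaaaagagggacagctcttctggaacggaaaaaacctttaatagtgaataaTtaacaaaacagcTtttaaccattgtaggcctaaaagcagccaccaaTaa
nuclear copy: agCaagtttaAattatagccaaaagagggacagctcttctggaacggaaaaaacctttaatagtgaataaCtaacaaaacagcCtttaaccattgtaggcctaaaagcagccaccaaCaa
By contrast, 14 other mitochondrial genes were covered over their whole length by an identical nuclear copy, among them the mRNAs COX2, COX3, ATP6, ATP8 and ND4L. In every EV library these 5 mRNAs had 0 counts, and in every cell library they had at most 11. TrnE was also wholly covered and had 572 to 3251 counts in cells, so a full copy and a near absence of counts did not always go together. TrnE is only 69 bases long, and its identical copy lies on chromosome 4. The best matches of its neighbours ND6 and CYTB, also on chromosome 4, had 93.6% and 92.9% identity. How this bears on its counts was not tested. Sums over the 13 mitochondrial mRNAs below therefore rest on the other 8. Reads of some of these can match a copy too, since an identical copy covered 63.6% of ND4. The closest copies of ND3 and COX1, as long as the genes, had 99.7% and 97.6% identity. How many reads this removed was not tested.

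Total counts per library were 959217 to 5509952 in EVs (median 3825686) and 26566061 to 55282322 in cells (median 37813815). Counting error was small for the rRNAs, since the widest exact 95% binomial interval of a share was 0.104 percentage points. Such intervals cover counting error only. Of 10 NSC markers, 8 had a mean above 10 counts per 1000000 counts of a library (CPM) in cells, where the 10 summed to 3290 to 6160 CPM, and 7 did so in EVs, where they summed to 300 to 1280 CPM. Markers of neurons summed to 566 to 1230 CPM in cells and 93.0 to 329 CPM in EVs, and the part of any marker list in a result was not tested. Endothelial markers summed to 2.18 to 5.90 CPM in cells and 3.28 to 59.0 CPM in EVs, those of the oligodendrocyte lineage to 333 to 839 and 73.6 to 454 CPM and astrocyte markers to 28.9 to 364 and 12.3 to 146 CPM, while microglia and blood markers summed to at most 8.09 CPM in any library. Sums over 4 Y-linked genes did not overlap between libraries labelled female and male in either location. Of the EV libraries 6 had fewer than 2000000 counts (called shallow below), namely those of female set 4 at all 3 doses, of male set 3 at 120 and 320 mg/dL and of female set 3 at 0 mg/dL. Shares, ratios, fold changes and list counts of EVs against cells are given with and without them.

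In the cells, mt-Rnr2 was the dominant mitochondrial RNA and mt-Rnr1 a distant second. mt-Rnr2 took 17.3% of all counts in the lowest and 30.3% in the highest of the 18 cell libraries, with a median of 24.9%. mt-Rnr1 took 2.19% to 3.62%, with a median of 3.02%. Both rRNAs together made up 19.8% to 33.7% of the counts of a cell library and 93.0% to 95.9% of its counts on mitochondrial genes.

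In the EVs, mt-Rnr2 was lower than in any cell library, while mt-Rnr1 was spread across and beyond the range of the cells. mt-Rnr2 took 3.80% of counts in the lowest EV library, 8.86% at the median and 16.2% in the highest. All 18 EV libraries lay below all 18 cell libraries. How many of all features separate EVs from cells in this way was not counted, and 80.5% of the genes tested further below were called between them. mt-Rnr1 took 0.676% in the lowest EV library, 2.23% at the median and 4.5% in the highest, with 9 EV libraries below all cells and 3 above all of them. These 3 were female set 5 at 120 and 320 mg/dL and female set 3 at 320 mg/dL. The shares varied more among EVs than among cells, with coefficients of variation of 50.5% against 14.2% for mt-Rnr1 and 39.3% against 13.8% for mt-Rnr2.

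**Figure D1:**
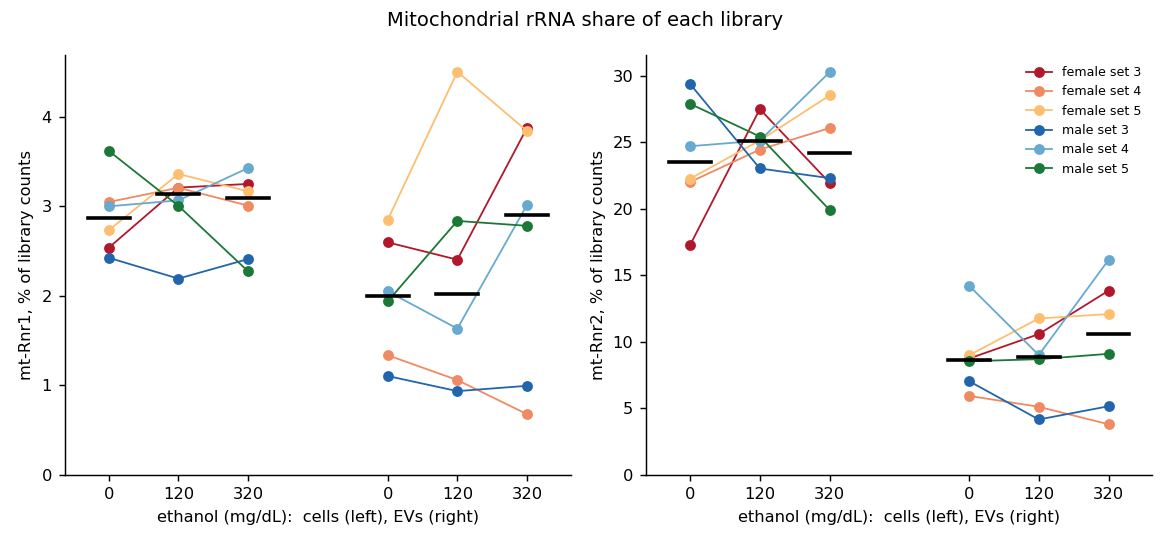
Share of library counts of mt-Rnr1 (left) and mt-Rnr2 (right), in percent, by ethanol dose in mg/dL for cells and EVs. Each point is 1 library, lines join the doses of a culture and black bars are medians of 6 libraries. For mt-Rnr2 the EV libraries, at most 16.2%, all lie below the cell libraries, at least 17.3%.

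Whether EVs differed from their cells was tested over the 6 cultures, each as its mean log2 difference over the 3 doses, by an exact two-sided permutation test over sign changes whose smallest possible p is 0.03125. The share of mt-Rnr2 was lower in EVs in 6 of 6 cultures, by 2.01-fold in female set 3 and up to 4.96-fold in female set 4, with a mean log2 difference of -1.55 ± 0.58 (SD, n = 6 cultures), or 2.92-fold. On library totals, the scale of a share, the median log2 fold change of the 15281 genes tested further below was -0.88, so a lower share alone does not set mt-Rnr2 apart. For the mt-Rnr2 share the exact permutation p was 0.03125, adjusted to 0.0391 over 5 measures. The test takes the 6 cultures as independent, although a female and a male culture share each pregnancy. Averaged within pregnancies, the differences were -1.61, -1.69 and -1.34 in sets 3, 4 and 5, all in 1 direction, and the smallest exact permutation p that 3 pregnancies can give is 0.25, so none of the 5 measures could be called over pregnancies. The share of mt-Rnr1 was lower in 5 of 6 cultures and higher in female set 5, with a mean log2 difference of -0.57 ± 0.73 (SD, n = 6), an exact permutation p of 0.125 and a range over cultures of -1.65 to 0.25, so a difference from the cells was not shown and one of either sign lies within that range. Without the 6 shallow EV libraries 5 cultures remained, for which the smallest exact permutation p is 0.0625. The mean log2 difference was then -1.36 for mt-Rnr2, lower in all 5 cultures, and -0.35 for mt-Rnr1. The 6 shallow libraries had mt-Rnr2 shares of 3.80% to 8.74% and the other 12 EV libraries 7.04% to 16.2%, and the part of depth in this spread was not tested.

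The balance between the 2 rRNAs shifted towards mt-Rnr1 in EVs. In cells there were 8.25 to 14.8 mt-Rnr1 counts per 100 mt-Rnr2 counts, with a median of 12, and in EVs 14.4 to 38.3, with a median of 22.6. Of the EV libraries 17 of 18 lay above all cells, and the exception was male set 4 at 0 mg/dL. The ratio was higher in EVs in 6 of 6 cultures, from 1.43-fold in male set 4 to 2.77-fold in female set 5, with a mean log2 difference of 0.97 ± 0.35 (SD, n = 6), or 1.96-fold (exact permutation p = 0.03125, adjusted p = 0.0391). Without the shallow libraries it was 1.02, higher in all 5 cultures.

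Levels of the 2 genes can be set side by side per base of gene. In CPM per kilobase, mt-Rnr1 had 30772 ± 4371 in cells and 23502 ± 11860 in EVs (SD, n = 18 each), and mt-Rnr2 155660 ± 21448 in cells and 57202 ± 22505 in EVs. Per base, mt-Rnr2 was 4.08 to 7.32 times mt-Rnr1 in cells and 1.58 to 4.19 times in EVs. An intact ribosome holds the 2 rRNAs in equal numbers, but reads per base after depletion do not count molecules, and how much of each rRNA the depletion removed was not tested.

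mRNAs of the mitochondrial genome fell much further in EVs than either rRNA. They summed to 11480 to 18209 CPM in cells and 165 to 2324 CPM in EVs, and the mitochondrial tRNAs to 586 to 1987 CPM in cells and 20.3 to 103 CPM in EVs, with no overlap for either. The share of all features without overlap was not counted. In cells there were 1.71 to 2.51 mt-Rnr1 counts and 12.1 to 23.9 mt-Rnr2 counts per mitochondrial mRNA count. In EVs there were 4.75 to 100.0 and 30.3 to 547, and all 18 EV libraries lay above all 18 cell libraries for both.

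The ratio of mt-Rnr1 to mitochondrial mRNA was higher in EVs in 6 of 6 cultures, by 3.52-fold in male set 3 and up to 35.3-fold in female set 5 (mean log2 difference 3.71 ± 1.51, SD, n = 6, or 13.1-fold). That of mt-Rnr2 was higher by 1.76-fold in male set 3 and up to 24.0-fold in male set 4 (mean log2 difference 2.74 ± 1.45, SD, n = 6, or 6.68-fold). Both had an exact permutation p of 0.03125 and an adjusted p of 0.0391, and without the shallow libraries the means were 3.91 and 2.90. Both calls were lost when the mean of log2 counts of the 13 mRNAs, 5 of which had 0 to 11 counts, replaced their sum, with mean log2 differences of 1.15 and 0.18 (adjusted exact permutation p = 0.156 and 0.75). Both were kept with that mean over the mRNAs not wholly covered by an identical nuclear copy, an alternative added after the data were seen. Cultures differed widely in EVs and little in cells. The EVs of male set 3 and female set 4 had 30.3 to 44.9 mt-Rnr2 counts per mRNA count at any dose and those of male set 4 had 320 to 547, while the cells of these 3 cultures had 15.5 to 23.9. Of the 6 EV libraries of male set 3 and female set 4, 5 were shallow. The remaining library, male set 3 at 0 mg/dL, had 3354842 counts and the lowest ratio of all EV libraries. The part of depth in these ratios was not tested.

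**Figure D2:**
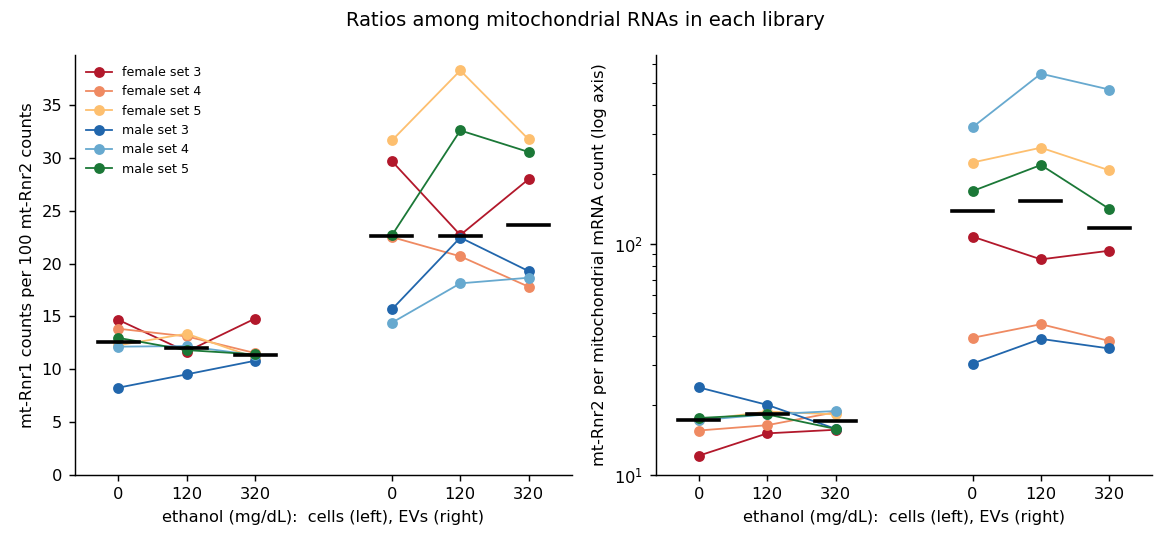
mt-Rnr1 counts per 100 mt-Rnr2 counts (left) and mt-Rnr2 counts per mitochondrial mRNA count (right, log axis), by ethanol dose in mg/dL for cells and EVs. Each point is 1 library, lines join the doses of a culture and black bars are medians of 6 libraries. Cells lie between 8.25 and 14.8 on the left and between 12.1 and 23.9 on the right, and EVs spread from 14.4 to 38.3 and from 30.3 to 547.

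Along the mitochondrial genome, the rRNAs differed far less between EVs and cells than the genes beside them. TrnF, TrnV and TrnL1, the tRNAs printed above that flank the rRNAs on the same transcript, were far lower in EVs. There were 1.19 to 3.79 TrnF counts per 1000 mt-Rnr1 counts in cells and 0.0912 to 0.764 in EVs. For TrnV the values per 1000 mt-Rnr2 counts were 0.339 to 1.01 in cells and 0.0438 to 0.206 in EVs, and for TrnL1 0.159 to 0.516 and 0 to 0.0967. None of the 3 ranges overlapped, and how common this is among all features was not counted. Counts of the tRNAs in EVs were low, at 1 to 63 for TrnF, 5 to 84 for TrnV and 0 to 19 for TrnL1 per library. mt-Rnr2 lay directly upstream of TrnL1 and ND1, and ND1 averaged 2405 CPM per kilobase in cells and 104 in EVs, which is 23.1 times lower, against 2.72 times lower for mt-Rnr2 and 1.31 times for mt-Rnr1.

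**Figure D3:**
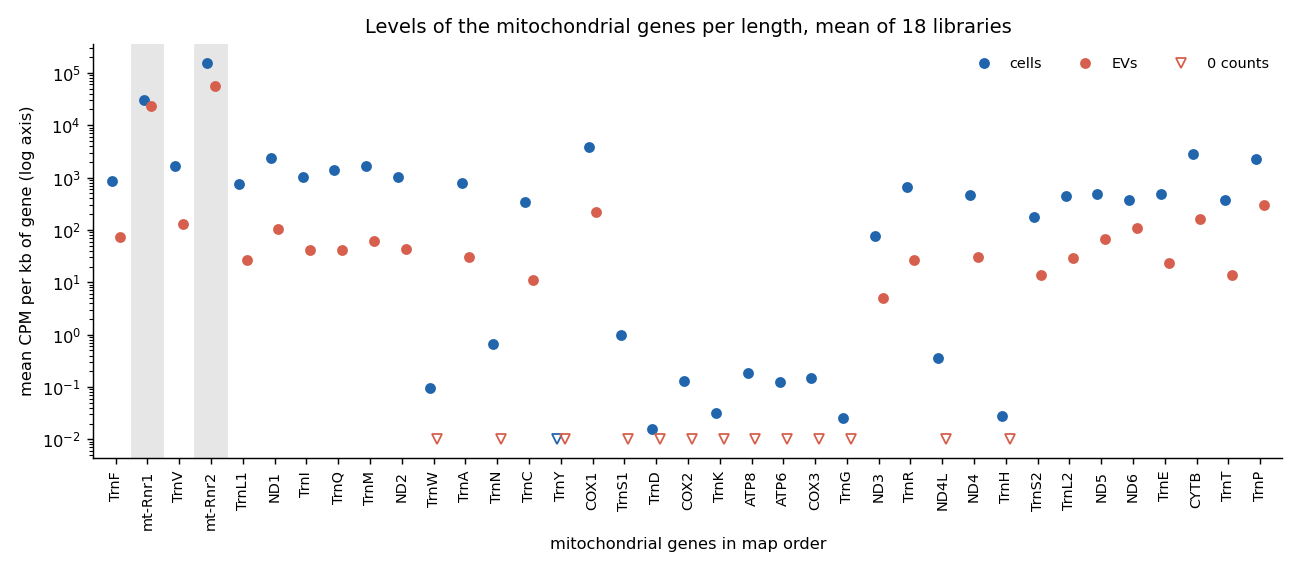
Mean CPM per kilobase of gene (log axis) of the 37 mitochondrial genes in map order, over 18 cell and 18 EV libraries, with mt-Rnr1 and mt-Rnr2 shaded and open triangles for genes with 0 counts in all libraries of a location. mt-Rnr1 and mt-Rnr2 are the highest genes of both locations and have the smallest gaps between cells and EVs.

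Across all genes, EVs and cells were compared with edgeR's quasi-likelihood test after TMM normalization, which scales libraries by the bulk of genes, with terms for sex and dose. Of 15281 genes tested, 12305 passed a Benjamini-Hochberg adjusted p under 0.05, so 80.5% were called, and a call by itself sets no gene apart. Of the calls 47.7% were higher in EVs, a share that became 72.9% with DESeq2 and 26.9% with library totals alone. On this scale mt-Rnr2 was lower in EVs, with a log2 fold change of -0.63 ± 0.28 (SE, edgeR adjusted p = 0.0390), and mt-Rnr1 had a log2 fold change of 0.44 ± 0.26 (SE, edgeR adjusted p = 0.112). mt-Rnr2 stood at the 34.8th percentile of the fold changes of all genes tested and mt-Rnr1 at the 62.8th. The sign for mt-Rnr1 turned with the scaling, to -0.41 with library totals alone, where the median of all genes tested was -0.88 in place of -0.08, and relative to that median mt-Rnr1 was the higher on both scales. The call for mt-Rnr2 was lost with the culture and dose as a block (-0.72, edgeR adjusted p = 0.0769), without set 3 (-0.53), without set 4 (-0.50) and without the shallow EV libraries (-0.53, edgeR adjusted p = 0.0796). mt-Rnr1 passed the threshold without the shallow EV libraries (0.57, edgeR adjusted p = 0.0237). The 18 libraries of a location came from 6 cultures at 3 doses and were not independent, so these p-values are too small. The test over cultures above counts each culture once.

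mRNAs and tRNAs of the same genome were lower in EVs without exception among those tested, where 42.2% of all genes tested were called lower. All 8 tested mRNAs of 13 were called lower, with a median log2 fold change of -3.38 against -0.08 over all genes. ND2, a subunit of respiratory complex I, had the largest difference (-3.82 ± 0.26, SE), and ND6, the sole mRNA encoded on the other strand, the smallest (-0.93 ± 0.20, SE, edgeR adjusted p = 8.97e-05). ND5, which overlaps ND6 at its end, followed with -2.05 ± 0.17 (SE). All 14 tested tRNAs of 22 were called lower, with a median of -4.04. A gene could pass the low-count filter on the cell libraries alone, and for such a gene a lower level in EVs was set beforehand. On EV libraries alone, as in the ethanol comparisons below, 7 of the 13 mRNAs and 7 of the 22 tRNAs passed. For the rest, the counts of genes called lower are no test of direction. TrnF had -2.65 ± 0.22, TrnV -2.87 ± 0.20 and TrnL1 -4.17 ± 0.27 (SE). Whether strand was used in counting is not given in the sources used here, and ND6 lies opposite a stretch of the plus-strand transcript, so its value and its rank are uncertain. The other 5 mRNAs and 8 tRNAs had too few counts to be tested. Without the shallow EV libraries all 8 mRNAs and all 14 tRNAs were again called lower, with medians of -3.83 and -4.28.

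Nuclear genes that make and look after mitochondrial rRNA had lower medians in EVs than all genes tested (-0.08) in each list by role, at smaller differences than the mitochondrial mRNAs. Since 80.5% of all genes were called and 42.2% were called lower, the counts below are read against these shares, and a high share of calls is near the background. On EV libraries alone, 6 of 9 transcription genes and 8 of 10 modification genes passed the low-count filter. For the others, as for the mRNAs and tRNAs above, a call of lower is no test of direction. Among 9 genes of mitochondrial transcription, 8 were called lower and none higher (median -0.93), led by Tfb2m, which opens the promoter (-1.34), Tefm, the elongation factor (-1.30), and Mterf1a, a copy of the factor that binds inside TrnL1 (-1.16). Mterf1a and Mterf1b are near-identical paralogs whose reads may be split, so their values are uncertain. Tfam, which packages the genome and starts transcription, had -0.27 and did not pass the test (edgeR adjusted p = 0.0534). Among 4 genes that cut tRNAs out of the transcript, 3 were called lower (median -1.05), namely Trmt10c (-2.76) and Hsd17b10 (-1.03), subunits of the mitochondrial RNase P that cuts in front of tRNAs, and Elac2, which cuts behind them (-1.07).

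Genes of rRNA modification split between lower, higher and not called, and most of those of assembly and turnover were called lower, beside 42.2% of all genes, whose median was -0.08. Of 10 rRNA modification genes 9 were tested, and 3 were called lower, 1 higher and 5 not (median -0.12). The lower ones were Mrm3, a methyltransferase of the large rRNA (-1.43), Nsun4, which methylates the small rRNA (-0.77), and Trmt2b, which methylates mitochondrial tRNA and rRNA (-0.36). Mrm1, another methyltransferase of the large rRNA, was higher in EVs (3.53 ± 0.23, SE, edgeR adjusted p = 3.29e-16). Of 15 genes of rRNA binding and ribosome assembly, 11 were called lower (73.3%) and 2 higher (median -0.70), so that 86.7% were called beside 80.5% of all genes, with Gtpbp10 (-2.10) and Malsu1 (-1.80), both of large subunit assembly, and the helicase Dhx30 (-1.51) lowest, and Rcc1l (1.33) and Ybey (0.43) higher. Nsun4 and Mterf4 stand in 2 of these lists each. All 5 genes of mitochondrial RNA turnover and stability were called lower (median -1.25), led by Pnpt1, polynucleotide phosphorylase (-2.89), Lrpprc (-1.50) and Slirp (-1.25), which bind and stabilize mitochondrial mRNA. Without the shallow EV libraries, genes called lower were 9 of 9 for transcription, 4 of 4 for processing, 5 of 9 for modification, 12 of 15 for assembly and 5 of 5 for turnover, beside 41.7% of all genes. Here too a gene could pass the low-count filter on the cell libraries alone. With the strand setting unknown, the values of some genes are uncertain, since Tfb2m, Mterf4, Trmt10c, Prorp, Elac2, Mrm3, Dhx30, Malsu1, Ybey and Slirp overlap a gene on the opposite strand. Further genes of these lists do so as well, and the counts of calls in each list share this limit.

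**Figure D4:**
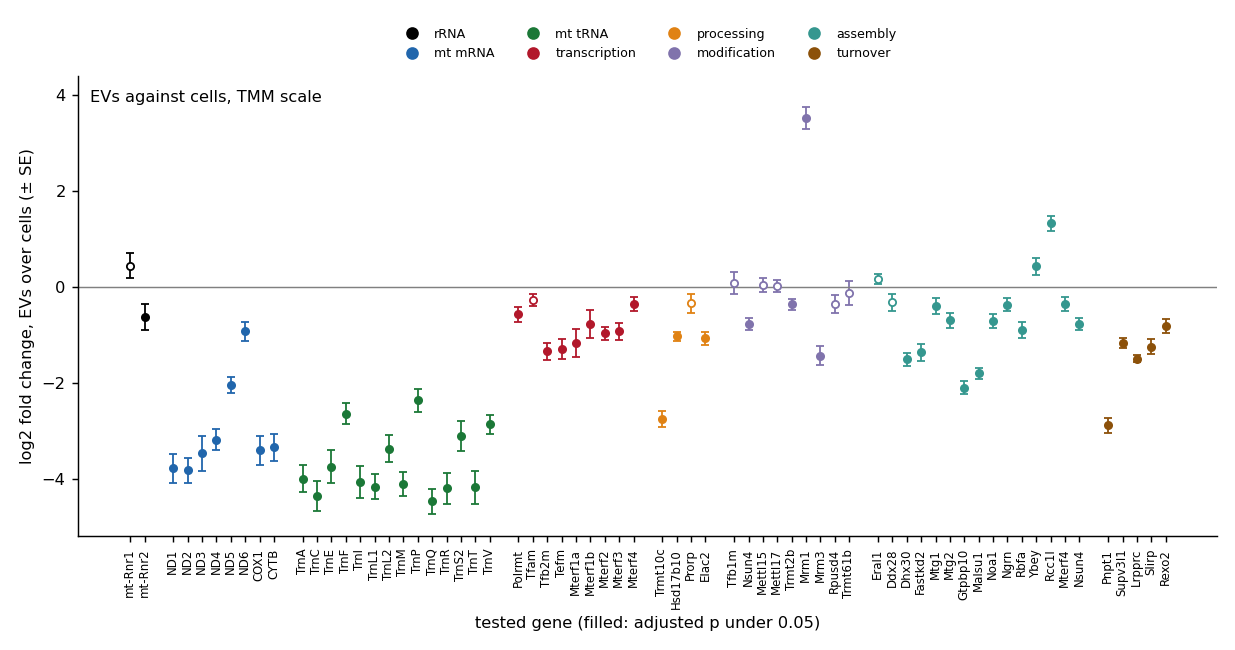
log2 fold change of EVs over cells (± SE, edgeR, TMM scale, 36 libraries) for mt-Rnr1, mt-Rnr2, the other tested mitochondrial genes and nuclear genes of mitochondrial rRNA biology by role, with filled points for adjusted p under 0.05. mt-Rnr1 (0.44) and mt-Rnr2 (-0.63) lie near 0, and the mitochondrial mRNAs (median -3.38) and tRNAs (median -4.04) far below it.

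Ethanol gave no detectable change of either rRNA in cells. At 0, 120 and 320 mg/dL the share of mt-Rnr2 in cells had medians of 23.5%, 25.1% and 24.2%, with ranges of 17.3% to 29.4%, 23.0% to 27.5% and 19.9% to 30.3%. The share of mt-Rnr1 had medians of 2.86%, 3.13% and 3.08%, with ranges of 2.42% to 3.62%, 2.19% to 3.36% and 2.27% to 3.43%. The groups overlapped at every dose. In edgeR with the culture as a block, mt-Rnr1 had a log2 fold change of 0.09 ± 0.18 at 120 mg/dL and 0.12 ± 0.18 at 320 mg/dL, and mt-Rnr2 0.11 ± 0.19 and 0.16 ± 0.20 (SE), with edgeR adjusted p from 0.863 to 1.00. Of 17792 genes, 0 (0%) were called at 120 mg/dL, with 443 at an unadjusted p under 0.05 in edgeR and 4 called by DESeq2, and 7 (0.0393%) were called at 320 mg/dL.

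In EVs the doses overlapped too, with wider spreads. The share of mt-Rnr2 had medians of 8.64%, 8.85% and 10.6% at 0, 120 and 320 mg/dL, with ranges of 5.93% to 14.2%, 4.16% to 11.8% and 3.80% to 16.2%. The share of mt-Rnr1 had medians of 1.99%, 2.02% and 2.90%, with ranges of 1.10% to 2.84%, 0.934% to 4.5% and 0.676% to 3.88%. edgeR gave log2 fold changes of 0.33 ± 0.37 and 0.48 ± 0.37 for mt-Rnr1 and 0.12 ± 0.47 and 0.37 ± 0.47 for mt-Rnr2 at 120 and 320 mg/dL (SE), with edgeR adjusted p from 0.684 to 1.00. Of 11880 genes, 1 (0.00842%) was called at 120 mg/dL and 10 (0.0842%) at 320 mg/dL. Both doses were set against the same control libraries, so the 2 comparisons are not independent.

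Within cultures, the shares and ratios moved both ways with ethanol. Over 5 measures, 2 doses and 2 locations, the 20 exact permutation tests over 6 cultures gave adjusted p from 0.987 to 1. In EVs at 320 mg/dL the log2 difference of the mt-Rnr1 share was 0.16 ± 0.62 (SD, n = 6), from -0.98 in female set 4 to 0.58 in female set 3, and that of the mt-Rnr2 share was 0.05 ± 0.50, from -0.64 in female set 4 to 0.66 in female set 3. In cells at 320 mg/dL the corresponding differences were 0.01 ± 0.36 and 0.06 ± 0.39. With 6 cultures the range from lowest to highest difference is an exact 96.9% interval for the typical difference if the cultures are independent and the differences symmetric. For the mt-Rnr1 share at 320 mg/dL the lower end was a 1.97-fold lower share in EVs and a 1.59-fold lower one in cells. Each end was 1 culture, female set 4 in EVs, with both libraries shallow, and male set 5 in cells (-0.67), and the next lowest were male set 3 in EVs (-0.15, or 1.11-fold lower) and female set 4 in cells (-0.02). Without the shallow EV libraries, the mt-Rnr1 share at 320 mg/dL was higher than control in all 3 cultures left, with a mean log2 difference of 0.50 ± 0.06 (SD), and the smallest possible exact permutation p was then 0.25.

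The ratios of the rRNAs to each other and to mRNA moved both ways as well. In cells, mt-Rnr1 to mt-Rnr2 differed from control by -0.03 ± 0.19 at 120 mg/dL and -0.05 ± 0.23 at 320 mg/dL on the log2 scale (SD, n = 6 cultures), mt-Rnr1 to mitochondrial mRNA by 0.03 ± 0.12 and -0.03 ± 0.25, and mt-Rnr2 to mRNA by 0.07 ± 0.18 and 0.02 ± 0.35. In EVs the same ratios differed by 0.19 ± 0.37 and 0.11 ± 0.30, by 0.45 ± 0.68 and 0.14 ± 0.50, and by 0.26 ± 0.36 and 0.02 ± 0.30. In EVs at 120 mg/dL, mt-Rnr1 to mRNA was higher than control in 5 of 6 cultures and mt-Rnr2 to mRNA in 5 of 6, with exact permutation p of 0.156 and 0.125 before adjustment and 0.987 after it. Female set 3, whose control EV library was shallow, was the culture that went the other way in both. Female set 4 and male set 3 also had shallow EV libraries in this comparison and were higher than control in both. The part of depth was not tested.

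**Figure D5:**
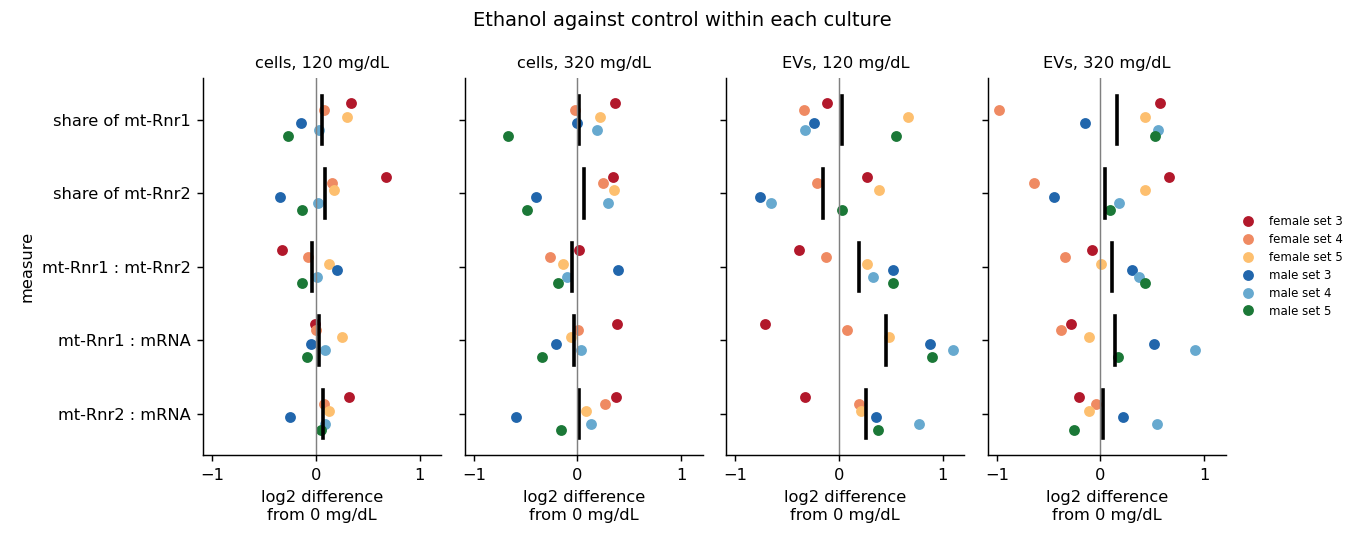
log2 difference from 0 mg/dL of the shares of mt-Rnr1 and mt-Rnr2, of their ratio and of their ratios to mitochondrial mRNA (rows), for cells and EVs at 120 and 320 mg/dL (panels). Each point is 1 culture and black bars are means of 6 cultures. In each row and panel, points lie on both sides of 0.

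A change in the EV-to-cell ratio with ethanol, the question of whether ethanol alters what is passed from cells to EVs, was not detected for the rRNAs either. The interaction of location and dose in edgeR, blocked by the pairs of EV and cell libraries that came from 1 culture at 1 dose, gave log2 values of 0.21 ± 0.76 and 0.34 ± 0.76 for mt-Rnr1 and -0.03 ± 0.99 and 0.17 ± 0.99 for mt-Rnr2 at 120 and 320 mg/dL (SE, edgeR adjusted p = 1 for each). Of 15281 genes, 1 (0.00654%) was called at 120 mg/dL and 0 (0%) at 320 mg/dL, the latter with 179 at an unadjusted p under 0.05 and 0 called by DESeq2. The edgeR and DESeq2 models of this ratio had no term for the EV-to-cell difference of each culture, so doses were not compared within cultures. The spread of that difference between cultures therefore enters their SE and their counts of calls. Over cultures, the 10 exact permutation tests of EV minus cell differences, which compare doses within each culture, gave adjusted p from 0.521 to 0.969. The largest mean was 0.42 ± 0.68 (SD, n = 6) for mt-Rnr1 to mRNA at 120 mg/dL, higher in 5 of 6 cultures.

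Female and male cultures overlapped in the levels of both rRNAs. The share of mt-Rnr2 was 17.3% to 28.5% in female cells and 19.9% to 30.3% in male cells, and 3.80% to 13.8% in female EVs and 4.16% to 16.2% in male EVs (9 libraries of 3 cultures each). With 3 cultures a sex the smallest possible p of the exact permutation test is 0.1, so no sex difference could be called on this test. It was reached in cells by the ratio of mt-Rnr1 to mt-Rnr2, whose mean log2 was -2.96 in females and -3.18 in males. edgeR on counts summed over doses gave female against male log2 fold changes of 0.14 ± 0.30 for mt-Rnr1 and -0.04 ± 0.34 for mt-Rnr2 in cells, and 0.53 ± 1.00 and 0.11 ± 1.24 in EVs (SE, edgeR adjusted p from 0.775 to 1.00). Of 20972 genes 7 (0.0334%) were called in cells, and of 14847 genes 0 (0%) in EVs, where 2227 had an unadjusted p under 0.05 and DESeq2 called 25. Neither the exact test nor this edgeR model paired the female and male culture of a pregnancy. With the pregnancy as a block, edgeR again called 7 genes in cells and 0 in EVs.

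In none of the ethanol, EV-to-cell ratio or sex comparisons was any tested mitochondrial mRNA or tRNA, or any gene of the 5 nuclear lists, called by edgeR. In EVs at 320 mg/dL the median log2 fold change was 0.30 over 7 tested mRNAs and 0.33 over 7 tested tRNAs, beside 0.42 for the rRNAs and 0.01 over all genes. In cells at 320 mg/dL the medians were 0.21 over 8 mRNAs and 0.23 over 14 tRNAs, beside 0.14 for the rRNAs and -0.01 over all genes.

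The features whose log2 CPM ran most like that of each rRNA were listed within each location over its 18 libraries, by Pearson's r among features with a mean of at least 50 counts, as a description. The 18 libraries share cultures and scaling. In cells, of 13030 features, mt-Rnr2 ran closest with Ndufb11 (r = 0.85) and Ndufa6 (r = 0.83), nuclear genes of respiratory complex I, then Use1, Terc and Gnpda2 (r = 0.76). mt-Rnr1 ran closest with the tRNA gene n-TEctc11 (r = 0.83), then Gm41774, Alpl, Terc and ND4 (r = 0.76). In EVs, of 4742 features, mt-Rnr1 and mt-Rnr2 were among each other's 5 closest (r = 0.87). mt-Rnr1 ran closest with Arglu1 (r = 0.92), and mt-Rnr2 with Rmrp (r = 0.89), the RNA of RNase MRP, and both had Rn7sk, a small nuclear RNA that holds back transcription elongation, among the 5. Other rRNA rows of the tables, 53 in all, summed to 0.713 to 11 CPM in cells and 0.889 to 14.9 CPM in EVs, and the large cytosolic rRNAs were not analysed here. In these bulk libraries, fewer cells or vesicles that carry an RNA and less of it in each cannot be told apart.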

How the data were processed

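RNA was sequenced from EVs and cells of 6 cultures at 3 doses. Per the labels and the study's methods, libraries were stranded and made after rRNA depletion. The authors removed duplicate reads, trimmed with Trimmomatic, aligned to mm39 with STAR and used HTSeq for the deposited read counts, which are whole numbers without normalization. The annotation release, the strand setting and the number of duplicates removed are not given in the sources used here. The study states RNA integrity for cells and no such value for EVs, so integrity and location cannot be told apart.

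Counts were tested in R 4.3.3 with edgeR 4.0.16 (filterByExpr, minimum count 10, minimum total 15; TMM; quasi-likelihood F tests, Benjamini-Hochberg adjusted p under 0.05), with SE computed as the absolute log2 fold change over the square root of F. DESeq2 1.42.0 was an alternative. Shares, ratios and exact permutation tests (64 sign changes, or 20 splits of 6 cultures) used Python 3.11.15 with numpy 2.4.6 and scipy 1.17.1, and figures matplotlib 3.10.9. Positions came from GENCODE M39 and nuclear copies from BLAST 2.17.0 on GRCm39. The scripts were tested on simulated data. No new alignment was made.

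The model of EVs against cells held terms for sex and dose. Doses were compared with the culture as a block, EV-to-cell ratios with each EV and cell pair as a block, and sexes on counts summed over doses. The ratio model held no term for the EV-to-cell difference of each culture. Libraries of a culture are paired by their labels. Deviations from group means correlated with a median r of 0.679 between doses of a culture in cells (18 of 18 pairs over 0.1), 0.196 in EVs (17 of 18) and 0.0719 between EV and cell libraries paired by culture and dose (4 of 18). The female and male culture of a pregnancy correlated with a median r of 0.376 in cells (6 of 9 pairs over 0.1) and 0.106 in EVs (5 of 9). The 6 cultures come from 3 pregnancies, so p-values over cultures measure the spread between these cultures and not between litters.

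The members, gene lists and tests were chosen with earlier results of these data known. The genes named are both rRNAs, all mitochondrial mRNAs and tRNAs by their counts and range, with TrnF, TrnV and TrnL1 named, and, from lists of nuclear genes by role, the 3 called genes of largest change in each direction. Tfam and Prorp were named after their values were seen. Likeness was read from log2 CPM with a prior count of 1, naming 5 features each. Alternatives were DESeq2, median-of-ratios factors, library totals, mitochondrial rows left out of the scaling, no low-count filter, leaving out each pregnancy, adding or removing blocks, control libraries or compared doses alone, summed or separate libraries, shares without mitochondrial rows and the top EV feature, and as mRNA denominator the mean of log2 counts or the sum without ND6. Leaving out EV libraries under 2000000 counts, averaging the cultures of a pregnancy and an mRNA mean over the 8 genes not wholly covered by an identical nuclear copy were added after the data were seen. No library was left out of the main results.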

Additional observations from a re-analysis of the deposited data

Results flagged for a closer look

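Of 30 groups of 6 libraries checked for a library far from the others, 3 held 1, and chance alone marks about 1 in 20 groups. Among control cells, male set 3 had a log2 ratio of mt-Rnr1 to mt-Rnr2 of -3.60, below the others, with a gap of 0.67 of the group's range. Among cells at 120 mg/dL, the same culture had a log2 share of mt-Rnr1 of -5.51, below the others, with a gap of 0.738 of the range. Among cells at 320 mg/dL, female set 3 had a log2 ratio of mt-Rnr1 to mt-Rnr2 of -2.76, above the others, with a gap of 0.793 of the range.

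In EVs, the change of the ratio of mt-Rnr1 to mitochondrial mRNA from 0 to 320 mg/dL went opposite ways by sex. All 3 female cultures fell, by 0.29, 0.38 and 0.11 on the log2 scale, and all 3 male cultures rose, by 0.52, 0.92 and 0.17, a female minus male difference of -0.796. The exact two-sided permutation p of this difference was 0.1, the smallest that 3 against 3 cultures can give, and 0.286 after adjustment over 20 tests. Of the 20 tests of sex by dose, 7 gave this smallest p. The other 6 were, as female minus male, the same ratio in EVs at 120 mg/dL (-1.01), mt-Rnr1 to mt-Rnr2 in EVs at 120 (-0.54) and 320 mg/dL (-0.51), mt-Rnr2 to mRNA in EVs at 120 mg/dL (-0.47), and the shares of mt-Rnr1 (0.37) and mt-Rnr2 (0.49) in cells at 120 mg/dL, in none of which every female culture moved one way and every male culture the other. At 320 mg/dL, female sets 3 and 4 and male set 3 had at least 1 of these EV libraries under 2000000 counts, and the part of depth was not tested.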

How the results depend on the processing

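Depth limits EVs more than cells, and 6 cultures limit every test, so a p that misses the threshold does not show equality. Between EVs and cells, the mt-Rnr2 fold change missed the threshold with median-of-ratios size factors (-0.55), control libraries alone (-0.77), counts summed over doses (-0.99) and without EV libraries under 2000000 counts (-0.53, chosen after seeing the data), and spanned -0.81 to -0.50 when a pregnancy was left out, past the threshold only without set 5. mt-Rnr1 passed it with DESeq2 (0.51) and without those EV libraries (0.57). Its sign turned without a call under library totals (-0.41), no filter (-0.19), counts summed over doses (-0.03) and without set 5 (-0.01). Genes called were 23256 with DESeq2 and 22029 with no filter on low counts, which test more genes. Other causes were not tested.

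Over cultures, taking the mean of log2 counts as mRNA denominator, with 5 mRNAs at or near 0 counts, gave log2 differences of 1.15 for mt-Rnr1 and 0.18 for mt-Rnr2 (adjusted exact permutation p 0.156 and 0.75), against 3.42 and 2.45 over the 8 mRNAs not wholly covered by an identical nuclear copy, which kept the call. Leaving out a pregnancy gave -1.65 to -1.48 for the mt-Rnr2 share, 0.79 to 1.17 for the rRNA ratio, 3.14 to 4.19 for mt-Rnr1 to mRNA and 2.35 to 3.22 for mt-Rnr2 to mRNA, and leaving out the shallow EV libraries -1.36, 1.02, 3.91 and 2.90, in designs whose smallest p cannot pass. The same holds for the means of each pregnancy (chosen after seeing the data), with -1.55, 0.97, 3.71 and 2.74 in that order. Ethanol measures and fold changes of both rRNAs stayed uncalled under every alternative run.

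With the replicate block of culture and dose, mt-Rnr2 differed between EVs and cells by -0.72 and missed the threshold. With no replicate block, genes called at 320 mg/dL were 0 in EVs and 0 in cells. No other call on the rRNAs changed with the pairing.

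Genes called in EVs at 120 mg/dL (1) were 12 with DESeq2, 0 with median-of-ratios, 4 with library totals, 157 with no filter, 0 with only the compared doses and 0 to 3 without a pregnancy. At 320 mg/dL (10) they were 267 with DESeq2, 9 with median-of-ratios, 6 with library totals, 207 with no filter, 0 with only the compared doses and 0 to 110 without a pregnancy (110 without set 4, 1 without set 3, 0 without set 5), and 0 without the shallow libraries. In cells at 120 mg/dL DESeq2 called 4. In cells at 320 mg/dL (7) there were 96 with DESeq2, 0 with median-of-ratios, library totals, no filter or only the compared doses, and 0 to 1 without a pregnancy. For EV-to-cell ratios at 120 mg/dL (1) there were 2 with DESeq2, no filter or without the shallow libraries, 0 with median-of-ratios and 0 to 1 without a pregnancy, and at 320 mg/dL (0) there were 2 with no filter and 1 without the shallow libraries. Between sexes in EVs (0) there were 25 with DESeq2, 1 with median-of-ratios, 29 with library totals, 644 with no filter and 1224 with 9 against 9 libraries, and in cells (7) 179 with DESeq2, 994 with 9 against 9 libraries and 0 to 6 without a pregnancy (0 without set 4).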
